A study of Mus musculus with 2 samples.

Results

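The 34 genes examined here encode the enzymes of glycolysis, the transporters that bring glucose into the cell and carry lactate out of it, and the enzymes at the entry to the mitochondrion and to glycogen. They were taken by name from the pathway, by a rule that uses no measured value. The genes were chosen with earlier results of these data known, and the rule singles out Hk2 for comparison. All 34 were found among the 55573 listed genes of the series. RNA was sequenced from mesenteric arteries of wild type C57BL/6 mice, 10 weeks old, with 1 library from control arteries in 5 mM K+ and 1 library from arteries depolarized in 60 mM K+, for 60 min in both by the sample labels. Each library pooled tissue from 2 mice, so that differences between the libraries cannot be checked against replicates and p-values are not given. The study also measured induced genes by qPCR in groups of mice, with primers listed for Hk2. Those measurements are not part of the present comparison. According to the methods of the study, all solutions held tetrodotoxin to silence autonomic nerves, and control tissue was taken from beyond a ligature before the tissue still on the perfusion needle received high K+. This differs from the equal times in the labels. If it holds for the sequenced arteries, segment, time outside the body, handling and K+ cannot be told apart.

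Glycolysis splits glucose into pyruvate in the cytosol and yields ATP without oxygen. Hexokinase traps glucose in the cell by phosphorylation, phosphofructokinase commits it to breakdown, and lactate dehydrogenase turns pyruvate into lactate, which leaves through monocarboxylate transporters. Vascular smooth muscle is known for making lactate even when oxygen is plentiful. Many of these enzymes exist as isozymes from separate genes, such as Hk1, the form found in most tissues, and Hk2, an inducible form of muscle and fat. High external K+ depolarizes the smooth muscle membrane and opens voltage-dependent Ca2+ channels, and the comparison asks which genes of the pathway differed after that stimulus.

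The control library held 10480918 counted reads and the depolarized library 11289598. For each gene, log2(fold-change) compares reads in 60 mM K+ with reads in 5 mM K+, with library sizes scaled by the trimmed mean of M-values (TMM) of edgeR, given with a 95% Clopper-Pearson interval that covers counting error only. A gene was called when a random-sampling test of the kind offered by DEGSeq, computed here on the reads, gave a q-value under 0.005 and the absolute log2(fold-change) was above 1. These calls compare the 2 libraries and not the conditions. The study used DEGSeq at the same thresholds, but the form of its test is not stated, and the calls given here are not the calls of the study. Levels are given as deposited FPKM, a level per length of gene, which the authors scaled by total counts. The choice of scaling matters for small changes: total counts lower every log2(fold-change) by 0.21 compared with TMM. The arteries carried the smooth muscle markers that the tissue label calls for, with 6 of 6 detected at a summed FPKM of 17473 in the control and 17004 in the depolarized library. Tissue was pooled and sequenced in bulk, so that a change in RNA per cell and a change in the number of cells of a type cannot be told apart.

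Up-regulation was called for 5 of the 34 genes and down-regulation for 0, while of all 21374 genes with reads 2.11% were called up and 1.1% down. Many of those genes have few reads. Of the 31 genes here with at least 200 reads, 5 were called up and 0 down. Of all 9291 genes with at least 200 reads, 277 were called up and 29 down. The up-regulated genes lay at the ends of the pathway. They were the glucose transporter genes Slc2a1 and Slc2a3, the hexokinase gene Hk2 and the lactate transporter genes Slc16a1 and Slc16a3. None of the enzymes between glucose-6-phosphate and lactate was called. Hk2, Slc2a1 and Slc16a3 are also on the list of induced genes that the study drew from these libraries, and their calls here are not independent evidence. Slc2a3 and Slc16a1 are not on that list, which is shorter than the list of genes called here, so that these 2 calls rest on the test used here. Summed over both libraries, 33 genes had at least 10 reads, and 27 of them had a value of log2(fold-change) above 0, compared with 49.6% of all such genes. The median over these 33 genes was 0.46, compared with -0.0047 over the 14829 genes with at least 10 reads. Hk3 had 2 reads and 1 read and was left out of these counts.

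The call rule was varied, and each count is given with the share of all genes called up. With total counts 4 genes were called (1.44%), without Slc16a1, and with median-of-ratios and upper-quartile scaling 5 (2.09% and 1.95%). A minimum of 10 reads before the test gave 5 (3.14%), a q-value threshold of 0.05 gave 5 (2.93%) and an adjustment for gene length gave 5 (2.03%). Fold change alone gave 6 (5.54%), and a counting interval wholly beyond 1 gave 4 (1.77%). With an assumed coefficient of variation between replicates of 0.1 the count was 5 (1.63%), with 0.2 it was 2 (0.304%), Hk2 and Slc2a1, and with 0.4 it was 0 (0%).

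The sequences just upstream of the transcription starts are shown for the genes that rose and have an entry in the RefSeq promoter table, and for Ldha, which carries a full cyclic AMP response element (CRE). Each run covers the 250 bases before an annotated start on the strand of the gene. Capitals mark exact matches on either strand to the full CRE TGACGTCA, its core TGACG, the core of the hypoxia response element ACGTG and the E-box CACGTG, the binding letters of Myc and related factors. The full CRE contains the CRE core, and the E-box contains the hypoxia core.
Hk2: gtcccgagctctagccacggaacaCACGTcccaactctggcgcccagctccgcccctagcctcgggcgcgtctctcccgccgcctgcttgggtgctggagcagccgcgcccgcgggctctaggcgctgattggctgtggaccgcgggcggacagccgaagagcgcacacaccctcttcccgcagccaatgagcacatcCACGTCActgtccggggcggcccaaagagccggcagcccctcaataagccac
Slc2a1: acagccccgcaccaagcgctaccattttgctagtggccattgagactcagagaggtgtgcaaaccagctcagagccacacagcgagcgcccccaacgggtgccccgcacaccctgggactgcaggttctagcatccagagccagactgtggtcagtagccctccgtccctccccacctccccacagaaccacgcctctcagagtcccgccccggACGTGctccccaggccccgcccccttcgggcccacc
Slc16a1: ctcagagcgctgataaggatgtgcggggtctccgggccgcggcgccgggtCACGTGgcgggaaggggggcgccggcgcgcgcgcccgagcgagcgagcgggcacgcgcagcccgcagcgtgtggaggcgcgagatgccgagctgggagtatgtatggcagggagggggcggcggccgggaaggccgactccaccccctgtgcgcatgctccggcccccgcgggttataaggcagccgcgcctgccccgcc
Slc16a3: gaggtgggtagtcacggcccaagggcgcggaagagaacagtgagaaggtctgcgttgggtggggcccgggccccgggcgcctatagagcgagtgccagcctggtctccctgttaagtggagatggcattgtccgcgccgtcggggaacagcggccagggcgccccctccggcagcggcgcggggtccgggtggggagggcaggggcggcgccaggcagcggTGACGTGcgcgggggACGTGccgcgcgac
Ldha: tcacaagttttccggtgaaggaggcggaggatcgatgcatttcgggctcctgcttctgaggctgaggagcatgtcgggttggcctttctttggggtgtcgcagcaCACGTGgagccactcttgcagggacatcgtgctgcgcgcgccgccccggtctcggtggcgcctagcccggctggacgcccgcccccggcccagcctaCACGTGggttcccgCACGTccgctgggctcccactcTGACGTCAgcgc
On GRCm38.p6 these lie at chr6:82774455-82774704 (minus strand), chr4:119108495-119108744, chr3:104638414-104638663, chr11:120948817-120949066 and chr7:46845554-46845803, the last 4 on the plus strand.

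In Hk2 a CRE core on the opposite strand overlaps a hypoxia core, and their first bases lie 50 and 52 bases before the start. In Slc16a3 the same pair of motifs overlaps on the strand of the gene, 29 and 27 bases before the start. The window of Slc2a1 holds 1 hypoxia core, 36 bases before the start, and that of Slc16a1 holds an E-box 200 bases before it. The full CRE of Ldha begins 12 bases before the start. Of the 32 genes with an entry in the table, 19 (59.4%) had a hypoxia core in at least 1 window from 250 bases before to 50 bases after a start, compared with 29.0% of 9545 genes that had at least 10 reads and an entry by the same name. A CRE core was found in 9 of 32 genes (28.1%), compared with 34.6%, and a full CRE in 1 gene, compared with 3.54%. An E-box was found in 6 genes (18.8%), compared with 11.6%. Genes with several starts have several windows and so more chances of a match. There were 51 windows for these 32 genes and 32851 for the 27025 genes of the promoter table. Of the 51 windows, 45.1% held a hypoxia core, compared with 19.6% of all 32851, which include windows of genes not measured here. These matches are descriptions of letters, not binding sites.

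Hexokinase is the first enzyme of the pathway. Hk2 (ENSMUSG00000000628, chromosome 6, 82675019 to 82724448 on mm9) had 203 reads in 5 mM K+ and 1776 in 60 mM K+, or 8.24 and 66.9 FPKM. It rose 9.39-fold, with log2(fold-change) at 3.23 (95% counting interval 3.02 to 3.45). Only 52 of the 14829 genes with at least 10 reads had a larger log2(fold-change). Hk1 (chromosome 10, 61731603 to 61842656) had 1468 and 1836 reads, or 108 and 125 FPKM, with log2(fold-change) at 0.42 (0.32 to 0.52). Hk1 therefore stayed the more abundant form per length in both libraries, but the share of Hk2 in the summed FPKM of the 3 hexokinase genes was 7.08% in the control and 34.8% in the depolarized library. By reads, Hk2 made up 12.1% of hexokinase reads in the control (95% Clopper-Pearson interval 10.6 to 13.8) and 49.2% (47.5 to 50.8) in the depolarized library. These intervals cover counting error within 1 library each and not the spread between mice. All hexokinase reads together had a log2(fold-change) of 1.21 (1.13 to 1.30). Hk3, the form of white blood cells, was at 0.0917 and 0.0425 FPKM, below the floor of 3 counts in both libraries.

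**Figure D1:**
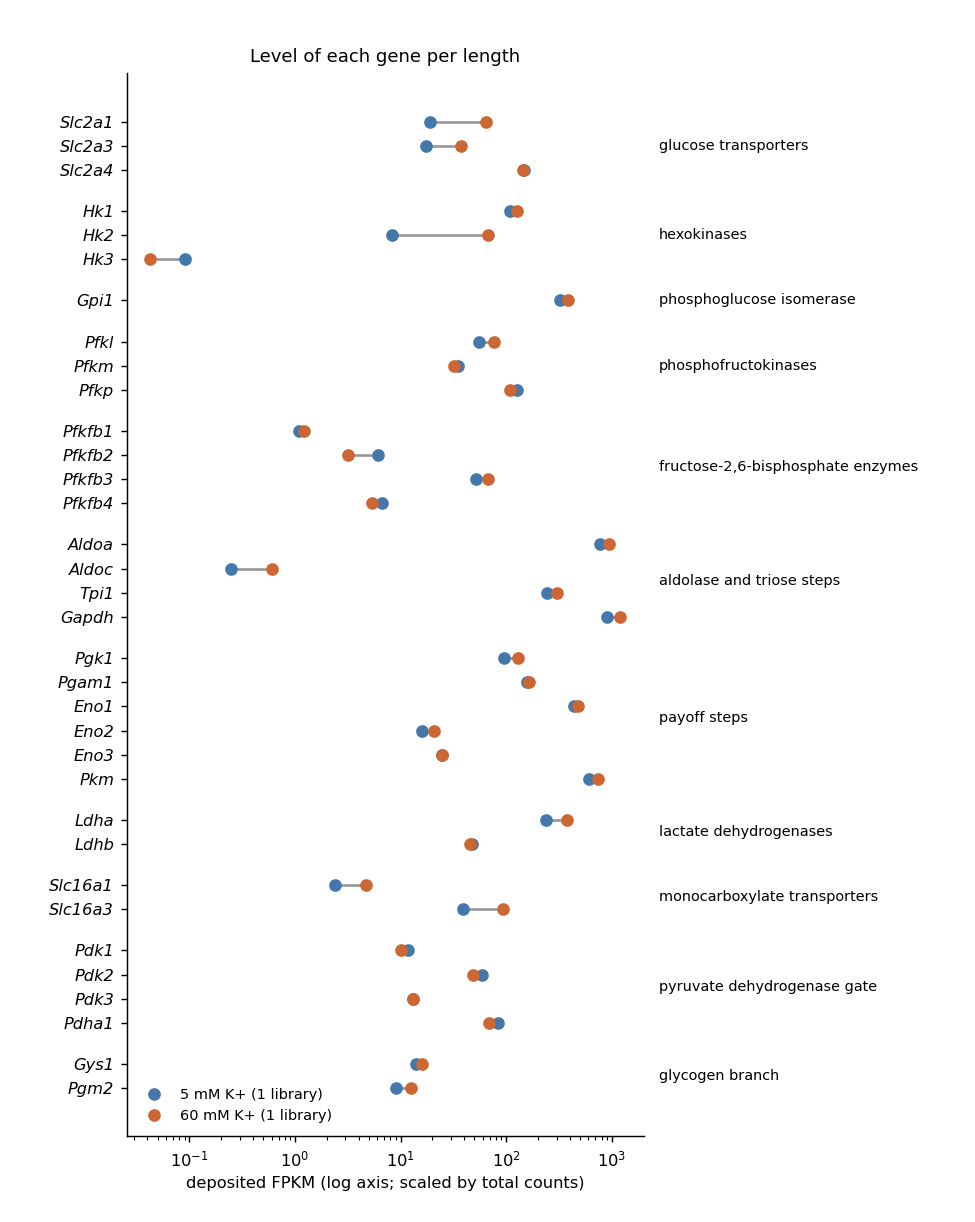
Deposited FPKM (log axis) of the 34 genes, ordered along the pathway, in the 5 mM K+ library (blue) and the 60 mM K+ library (orange), with 1 point per library and no error bars because there are no replicates. Hk2 moves from 8.24 to 66.9 FPKM, while the abundant enzymes Aldoa, Gapdh and Pkm lie at 604 FPKM or more in both libraries.

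The change of Hk2 was set against that of each other gene by the ratio of their fold changes, which does not depend on how the libraries are scaled. The fold change of Hk2 was 6.99 times that of Hk1 (exact conditional 95% interval 5.95 to 8.25). Against the other 30 genes with at least 50 reads summed, with 53989 and 71274 reads, it was 6.63 times as large (5.73 to 7.70). Hk2 was singled out with earlier results known and had the highest fold change of these genes, so that ratios above 1 were given in advance. Taken one by one, the whole interval lay above 1 for 30 of 30 genes. All 30 ratios share the same Hk2 reads and are not separate evidence. The ratio was smallest against Slc2a1, at 2.41 (1.98 to 2.95), and largest against Pfkfb2, at 15.3 (11.3 to 20.9). The lactate transporter genes stood next to Slc2a1 and Slc2a3, with 3.42 for Slc16a3 and 4.13 for Slc16a1, followed by Ldha at 5.14.

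**Figure D2:**
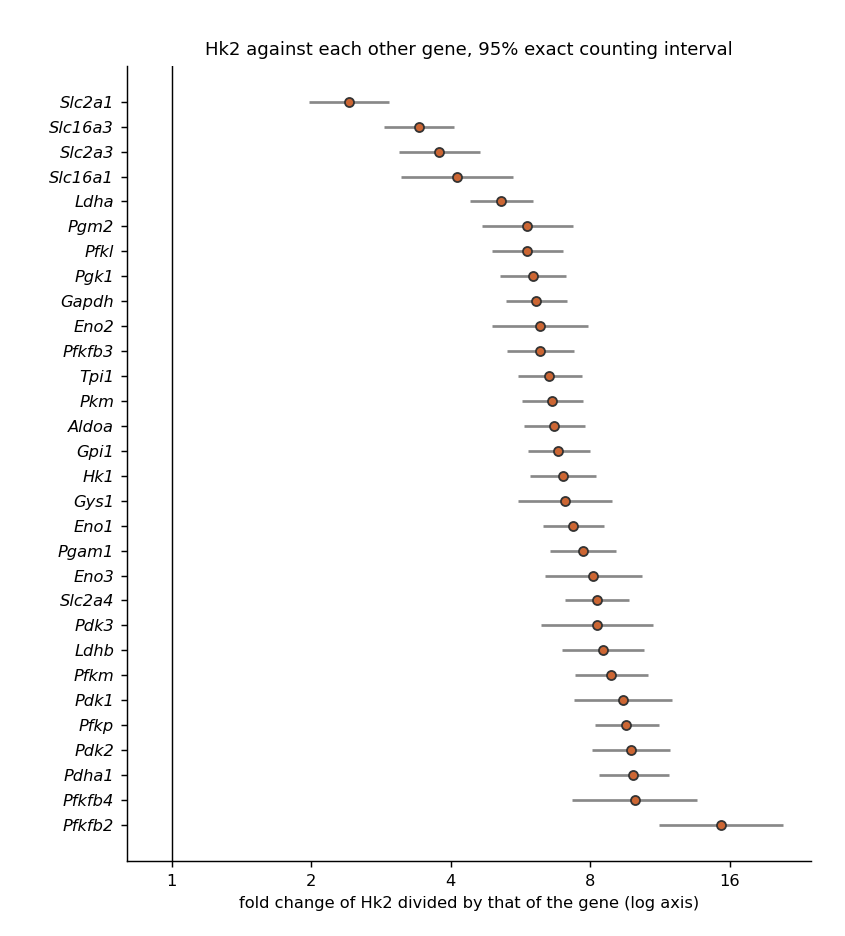
Fold change of Hk2 divided by the fold change of each of 30 other genes with at least 50 reads (log axis), with exact 95% intervals for counting error. Hk2 had the highest fold change, so that all 30 ratios lie to the right of 1, from 2.41 for Slc2a1 to 15.3 for Pfkfb2. They share the same Hk2 reads.

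Glucose enters cells through facilitative transporters. Slc2a1 encodes GLUT1, the basal transporter of most cells and of endothelium, Slc2a3 encodes GLUT3, a high-affinity form, and Slc2a4 encodes GLUT4, the insulin-responsive form of muscle and fat. Slc2a1 (chromosome 4, 118781316 to 118809935) had 289 and 1047 reads, or 19.0 and 63.8 FPKM, and rose 3.89-fold, with log2(fold-change) at 1.96 (1.77 to 2.15). Slc2a3 (chromosome 6, 122677827 to 122751658) had 318 and 736 reads, or 17.5 and 37.7 FPKM, and rose 2.48-fold, with log2(fold-change) at 1.31 (1.12 to 1.51). Slc2a4 (chromosome 11, 69756045 to 69761690) was the most abundant of the 3, with 2074 and 2196 reads, or 148 and 145 FPKM. Its log2(fold-change) was 0.18 (0.10 to 0.27) with TMM and -0.02 with total counts. The fold change of Slc2a1 was 3.42 times that of Slc2a4 (2.96 to 3.96), and that of Slc2a3 was 2.19 times (1.89 to 2.53). Slc2a4 made up 80.2% of the FPKM of the 3 genes in the control and 58.8% in the depolarized library, while Slc2a1 went from 10.3% to 25.9%.

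Cell type markers bear on these transporters, since endothelium carries GLUT1 and fat carries GLUT4. Of 6 endothelial markers, 5 had a counting interval above 0, with Cdh5 highest at a log2(fold-change) of 0.83, and Kdr fell by 1.10 on the log2 scale. Their summed FPKM was 1299 in the control and 1537 in the depolarized library. Of 5 red blood cell markers, 4 had an interval below 0, and their summed FPKM was 166 and 91.8. Of 6 adipocyte markers, 4 had an interval below 0, and Plin1 at -2.39 and Adipoq at -1.04 were lowest. All 6 were detected, their summed FPKM was 73.8 and 46.9, and Lep had 1 and 9 reads. Neutrophils carry Hk3 and Slc2a3, and their markers had 2 reads in the control and 0 in the depolarized library over 6 genes, with S100a9, Ly6g, Mpo and Retnlg at 0 in both. The 6 macrophage markers had 204 and 190 reads in all, and 5 of them had at least 10 reads over both libraries. Of all genes with at least 10 reads, 25% had an interval above 0 and 20.3% one below 0. With at least 1000 reads it was 2077 and 827 of 4096 genes. The part of these cell types in the results on transporters was not tested.

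The isomerase Gpi1, which turns glucose-6-phosphate into fructose-6-phosphate, had 3943 and 5052 reads, with log2(fold-change) at 0.46 (0.40 to 0.52). The next step is the commitment step, carried by the liver-type, muscle-type and platelet-type phosphofructokinase genes Pfkl, Pfkm and Pfkp. Pfkp was the most abundant per length, at 127 FPKM in the control and 108 in the depolarized library, and its log2(fold-change) was -0.03 (-0.11 to 0.05). Pfkm had 717 and 706 reads, with log2(fold-change) at 0.08 (-0.07 to 0.23) with TMM and -0.13 with total counts. For Pfkl, with 698 and 1042 reads, it was 0.68 (0.54 to 0.82), and its fold change was 1.64 times that of Pfkp (1.46 to 1.83) and 1.52 times that of Pfkm (1.31 to 1.75). The share of Pfkl in the FPKM of the family was 25.3% and 35.3%. The family as a whole had a log2(fold-change) of 0.14 (0.07 to 0.20).

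Fructose-2,6-bisphosphate, the strongest activator of phosphofructokinase, is made and broken down by the PFKFB enzymes. Pfkfb3, the inducible form with high kinase activity, was the main form, with 1189 and 1665 reads, or 51.3 and 66.7 FPKM. Its log2(fold-change) was 0.59 (0.48 to 0.70). Pfkfb2, known as the heart form, had 156 and 89 reads, with log2(fold-change) at -0.71 (-1.10 to -0.32), the lowest of the 33 genes and the only one with its interval below 0. The fold change of Pfkfb3 was 2.45 times that of Pfkfb2 (1.86 to 3.26), and Pfkfb3 held 78.9% of the family's FPKM in the control and 87.2% in the depolarized library. Pfkfb4 had 120 and 105 reads (-0.48 to 0.30) and Pfkfb1 15 and 18 reads (-0.71 to 1.46), and neither difference was detectable at this depth. Exons of Pfkfb2 overlap those of Yod1 on the other strand, which had 135 and 154 reads, and without strand in the counting such reads are uncertain.

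**Figure D3:**
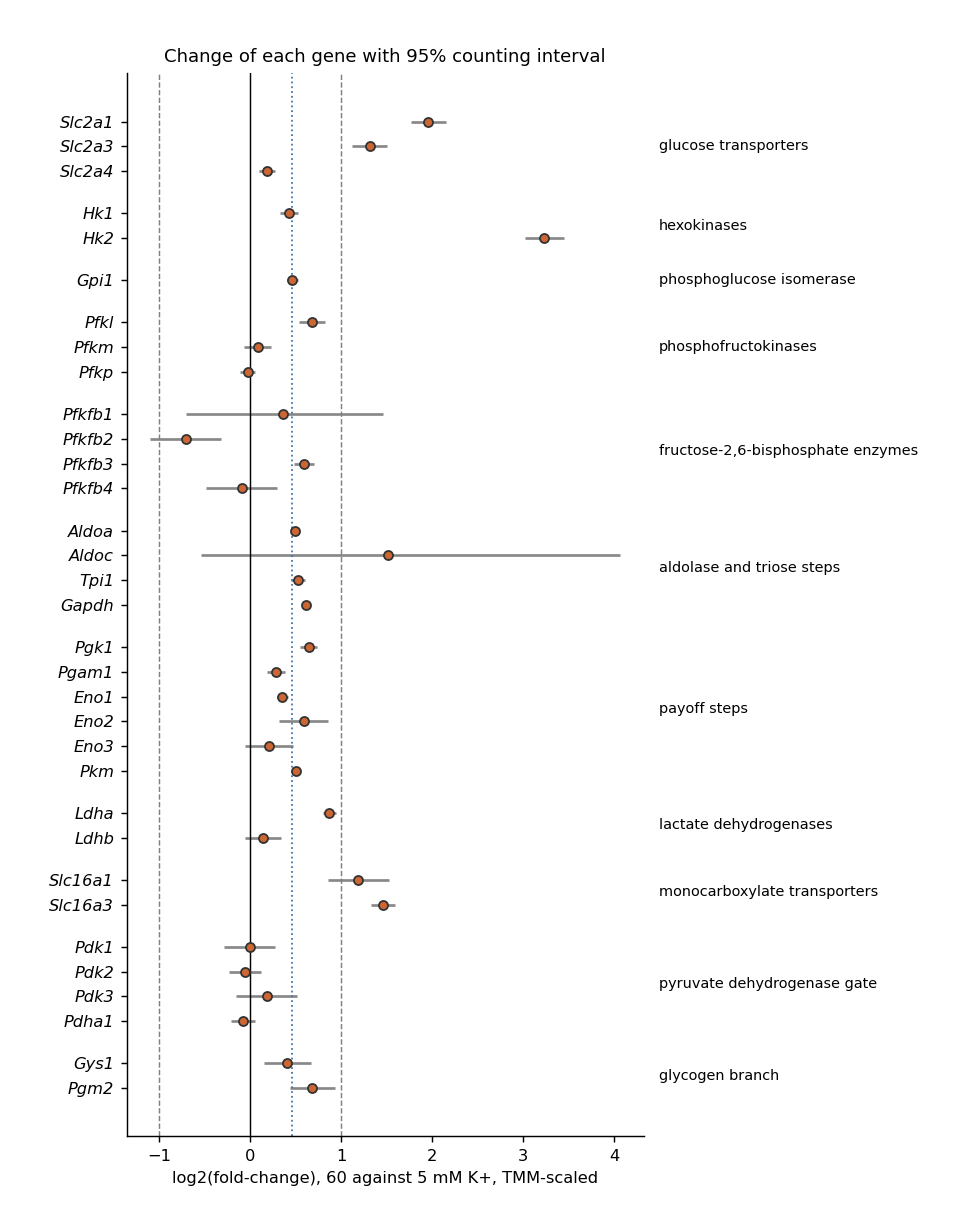
log2(fold-change), 60 mM K+ against 5 mM K+ with TMM scaling, of the 33 genes with at least 10 reads, ordered along the pathway; bars are 95% counting intervals, dashed lines mark -1 and 1, and the dotted line marks the median of 0.46. Hk2 and 4 transporter genes lie to the right of 1, Slc2a4 at 0.18, most enzymes between 0 and 1, and the pyruvate dehydrogenase genes around 0; Aldoc, at 1.52 on 11 reads, has an interval of -0.54 to 4.07.

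The enzymes from aldolase to pyruvate kinase were among the abundant transcripts of the artery. Aldoa, which cleaves fructose-1,6-bisphosphate, had 8368 and 10962 reads, with log2(fold-change) at 0.49 (0.45 to 0.53), while its brain-type relative Aldoc had 3 and 8 reads. Tpi1, triose phosphate isomerase, was at 0.52 (0.44 to 0.60). Gapdh, which yields NADH and is often used as a reference gene, had 8938 and 12768 reads, or 901 and 1196 FPKM, the highest level of the 34 genes. Its log2(fold-change) was 0.62 (0.58 to 0.66) with TMM and 0.41 with total counts. Pgk1, the first ATP-yielding enzyme, had 1444 and 2099 reads, with log2(fold-change) at 0.64 (0.54 to 0.74). Pgam1, a mutase, was at 0.28 (0.19 to 0.38).

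Of the enolase genes, Eno1, the form of most tissues, had 4268 and 5080 reads, with log2(fold-change) at 0.35 (0.29 to 0.41). The neuronal form Eno2 had 200 and 280 reads and a value of 0.59 (0.32 to 0.86), and its fold change was not distinguishable from that of Eno1 (ratio 1.18, 0.97 to 1.42). For the muscle form Eno3, with 226 and 243 reads, the interval included 0 (-0.06 to 0.47). Eno1 made up 91.5% and 91.4% of enolase FPKM. Pkm, pyruvate kinase of muscle, listed under its older name Pkm2, had 6958 and 9179 reads, with log2(fold-change) at 0.50 (0.46 to 0.55); its splice forms are not separated by counts per gene. Among the 16 enzymes from hexokinase to pyruvate kinase with at least 10 reads, the median was 0.50, and it was 0.49 without Hk2. Together the reads of these enzymes were 0.42% of all counted reads in the control and 0.517% in the depolarized library.

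These small changes were read against the libraries as a whole. A counting interval above 0 was found for 21 of 33 genes, and for 25% of all genes with at least 10 reads, and one below 0 for 1 of 33 and 20.3%. With at least 200 reads it was 21 of 31 genes and 34.1%. In the reverse direction it was 1 of 31 genes and 22.5%. The share above 0 was larger in deeper genes: of the 4096 genes with at least 1000 reads, 2077 had an interval above 0 and 827 one below 0. The median over all genes rose with depth, to 0.13 for the 4096 genes with at least 1000 reads, and with shortness: in 5 equal groups of genes with at least 200 reads, by the gene length that the FPKM imply, it was 0.21, 0.09, 0.02, -0.05 and -0.09 from the shortest to the longest. Of the 31 genes, 11 lay in the shortest group, up to 1141 bases, and 10 in the next. With the median of its length group taken off each gene, the median of the 33 genes was 0.31 in place of 0.46, and the 5 called genes were the same. This adjustment was chosen after the data were seen. With total counts the median was 0.25, compared with -0.21 over all genes. A library scaling moves every gene by the same amount and so cannot change the distance of 0.46 between the 2 medians. That distance was 0.35 with the length adjustment and 0.42 with FPKM and a pseudocount of 1.

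Pyruvate leaves glycolysis as lactate or enters the mitochondrion. Ldha, the muscle-type subunit of lactate dehydrogenase (chromosome 7, 54096845 to 54110997), had 2414 and 4105 reads, or 240 and 378 FPKM. Its log2(fold-change) of 0.87 (0.79 to 0.94) was the highest among the enzymes after Hk2, leaving aside Aldoc with 11 reads. Ldhb, the heart-type subunit, had 426 and 437 reads, with log2(fold-change) at 0.14 (-0.06 to 0.33) with TMM and -0.07 with total counts. The fold change of Ldha was 1.66 times that of Ldhb (1.43 to 1.92), and Ldha made up 83.3% of their FPKM in the control and 89.2% in the depolarized library.

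Slc16a3 encodes MCT4, the low-affinity exporter of lactate in glycolytic cells, and Slc16a1 encodes MCT1, which carries lactate in either direction. Slc16a3 (chromosome 11, 120809794 to 120822182) had 638 and 1634 reads, or 39.4 and 93.6 FPKM, and rose 2.75-fold, with log2(fold-change) at 1.46 (1.33 to 1.59). Slc16a1 (chromosome 3, 104442591 to 104462385) had 110 and 233 reads, or 2.37 and 4.66 FPKM, and rose 2.27-fold, with log2(fold-change) at 1.18 (0.85 to 1.52). With total counts it was 0.98 for Slc16a1, and the call was lost. The ratio between their fold changes was 0.83 (0.64 to 1.07), so that they could not be told apart, and Slc16a3 held 94.3% and 95.3% of their FPKM. Annotated exons of Slc16a3 overlap those of Csnk1d on the other strand, which had 2320 and 3731 reads, with log2(fold-change) at 0.79 (0.71 to 0.86), so that part of the reads of Slc16a3 is uncertain. Bsg, the chaperone that brings both transporters to the membrane, had 3337 and 4101 reads, with log2(fold-change) at 0.40 (0.33 to 0.47).

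**Figure D4:**
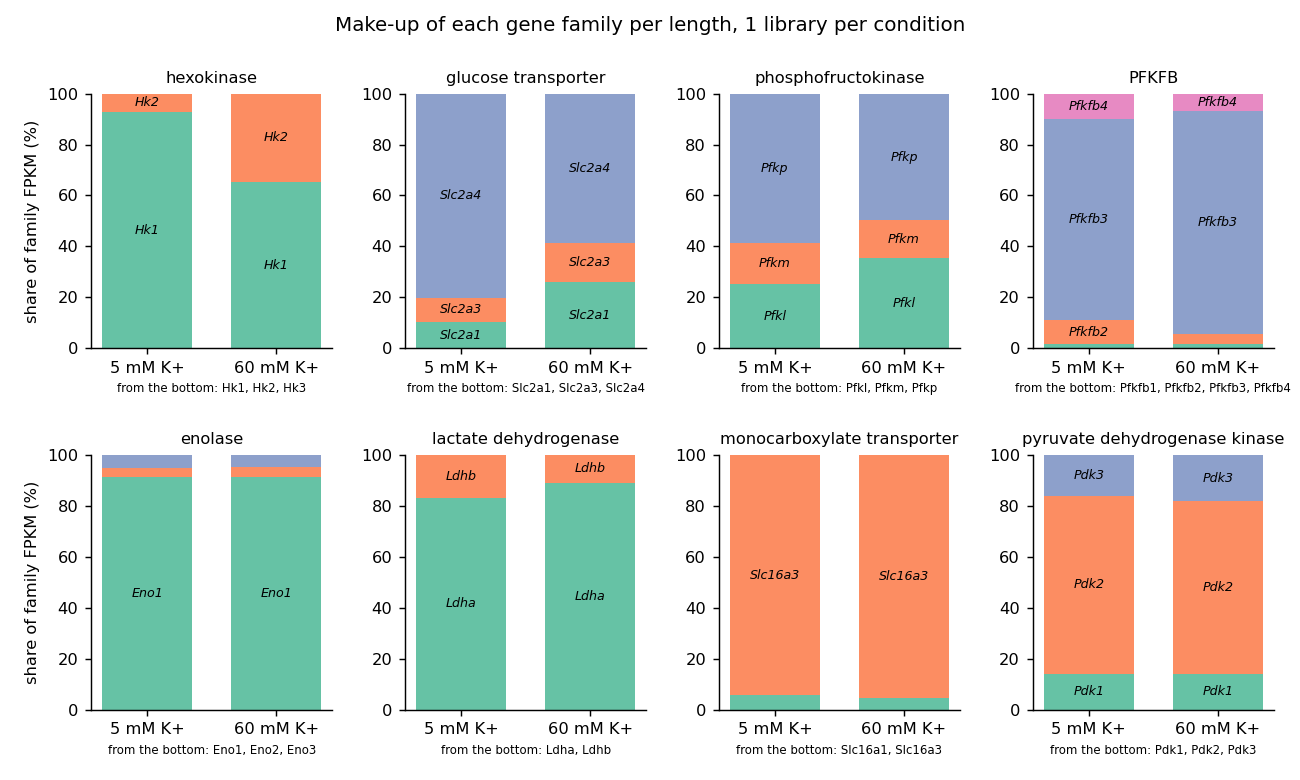
Share of each gene in the summed FPKM of its family (%, stacked bars from 0 to 100) in the 5 mM K+ and the 60 mM K+ library, with 1 library per condition; genes are named below each panel from the bottom of the bar to the top. The share of Hk2 is 7.08% and 34.8%, that of Slc2a4 80.2% and 58.8%, and the enolases and the monocarboxylate transporters keep their make-up within 1 percentage point.

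At the gate to the mitochondrion, 0 of 4 genes were called. Pdha1, the catalytic subunit gene of pyruvate dehydrogenase, had 1026 and 905 reads, with log2(fold-change) at -0.08 (-0.21 to 0.05). The kinases that switch this enzyme off were at -0.01 for Pdk1, -0.06 for Pdk2 and 0.18 for Pdk3 (-0.03 with total counts), and the intervals of all 4 genes included 0. Another kinase gene outside the 34, Pdk4, was the most abundant of them, with 3612 and 1998 reads, or 231 and 119 FPKM. Its log2(fold-change) was -0.75 (-0.83 to -0.67), which did not reach the threshold. On the glycogen branch, Gys1, the muscle form of glycogen synthase, had 228 and 282 reads, with log2(fold-change) at 0.41 (0.15 to 0.67). Exons of Gys1 overlap those of Ruvbl2 on the other strand, which had 252 and 226 reads, so that part of its reads is uncertain. The gene listed as Pgm2 (ENSMUSG00000025791), a phosphoglucomutase that RefSeq now names Pgm1, had 233 and 348 reads and a value of 0.68 (0.44 to 0.93).

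Other genes of carbohydrate metabolism were described by the same counts, from lists written with earlier results of these data known. Of 33 further genes of glycolysis, transport and pyruvate use, 25 had at least 10 reads, 0 were up-regulated and 1, Gapdhs, was down-regulated, on 23 and 4 reads, with a log2(fold-change) of -2.42 (-4.41 to -0.87). Their median was 0.03. The share called over all genes with reads was 2.11% up and 1.1% down. Slc2a6, at 1.76 on 6 and 19 reads, and Slc2a9, at -1.48 on 12 and 4 reads, were not called. The mitochondrial pyruvate carrier genes Mpc1 and Mpc2 were at 0.63 (0.24 to 1.01) and 0.28 (0.10 to 0.46). Of 18 glycogen genes, 0 were called in either direction and the median of the 17 measured was 0.06. Of 8 pentose phosphate genes, 0 were called, with a median of 0.14.

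The hexosamine branch leaves glycolysis at fructose-6-phosphate and makes the sugar donor for glycosylation. It had 2 of 7 genes up-regulated, while of all genes with reads 2.11% were called up and 1.1% down. Uap1, its last enzyme, rose from 1872 to 7870 reads, with log2(fold-change) at 2.17 (2.10 to 2.25); it too is on the study's list. Gfpt2, which encodes a form of the first enzyme of the branch, rose from 413 to 833 reads, a value of 1.11 (0.94 to 1.29) with TMM and 0.90, below the threshold, with total counts. Its relative Gfpt1 was at 0.01 (-0.16 to 0.19). Ogt, which attaches the sugar to proteins, had 1933 and 954 reads, with log2(fold-change) at -0.92 (-1.03 to -0.80). In the direction opposite to glycolysis, Pck1, a key enzyme of gluconeogenesis that is also expressed in fat, fell by 1.90 on the log2 scale (-2.44 to -1.38), from 156 to 39 reads; 0 of the other 6 genes of that list were called. Of 6 adipocyte markers, 4 had an interval below 0, beside 20.3% of all genes with at least 10 reads. The part of fat in the value of Pck1 was not tested.

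**Figure D5:**
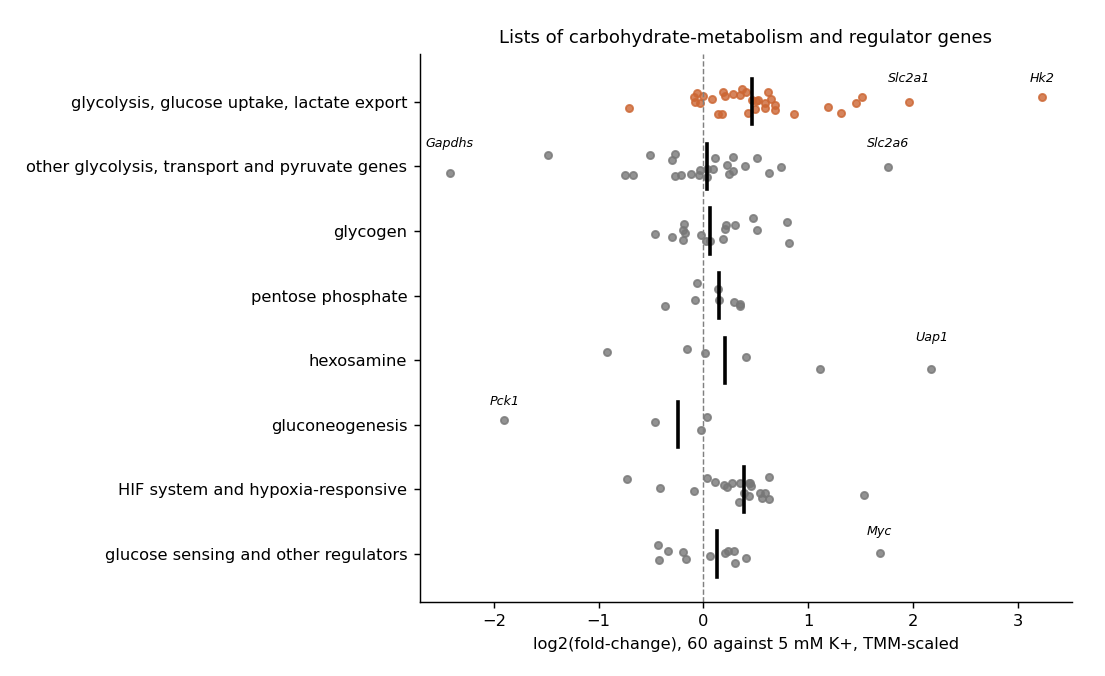
log2(fold-change) with TMM scaling of each gene with at least 10 reads in the 34 genes of the pathway (orange) and in 7 lists of related genes (grey), with 1 point per gene, a black bar at the median of the list and a dashed line at the median of all genes, -0.0047. The median is 0.46 for the pathway, 0.39 for the list of the hypoxia system and between -0.24 and 0.21 for the others; the farthest genes are named.

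Several transcription factors are known to drive glycolytic genes. Hif1a, the oxygen-regulated subunit of hypoxia-inducible factor, had 1769 and 2550 reads, with log2(fold-change) at 0.63 (0.54 to 0.72), and its endothelial relative Epas1 had 12098 and 13591 reads and a value of 0.27 (0.23 to 0.30). In the list of 21 genes of the hypoxia system outside glycolysis, 1 was up-regulated and 0 were down-regulated, beside 2.11% and 1.1% of all genes. A counting interval above 0 was found for 15 of the 21, beside 25% of all genes with at least 10 reads and 34.1% with at least 200. Among the 4096 genes with at least 1000 reads it was found for 2077. An interval below 0 was found for 2, Hif3a at -0.73 and Hif1an at -0.41. The up-regulated gene was Egln3, a hypoxia-inducible prolyl hydroxylase, which had 104 and 280 reads, with log2(fold-change) at 1.53 (1.20 to 1.87). Vegfa was at 0.62 (0.51 to 0.74) and Car9, a carbonic anhydrase widely used as a hypoxia marker, at -0.09 (-0.53 to 0.35). Myc, which also drives glycolytic genes, rose from 359 to 1073 reads, with log2(fold-change) at 1.68 (1.51 to 1.86), and is on the study's list. Txnip, a glucose-responsive inhibitor of glucose uptake, had 9060 and 7529 reads and a value of -0.17 (-0.21 to -0.12). No measurement here links these regulators to the genes of the pathway.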

How the data were processed

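RNA-seq libraries of mesenteric arteries in 5 mM K+ and in 60 mM K+ were compared, with 1 library of 2 pooled mice per condition. The authors deposited raw read counts per gene, made by alignment to mm9 with TopHat2 according to the methods. The submitters' processing notes name TopHat2 2.0.12, HTSeq 0.6.1 and edgeR 3.0.8; the annotation and strand setting are not given in these sources. The deposited FPKM values were made by the authors from the same counts: counts divided by FPKM differed between the libraries by the same factor, 0.928, for every gene with at least 10 reads in each library, which is the ratio of the total counts.

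From the counts, TMM factors (1.07 and 0.93) came from edgeR 4.0.16 (R 4.3.3). The study used DEGSeq without stating which of its tests. A random-sampling test was computed here from the formula in that package, which was not installed, on all 21374 genes with reads, with 0 reads set to 0.5. It calls more genes than the list of the study holds. Without replicates edgeR's quasi-likelihood test could not be run. The code was tested on simulated data. The intervals cover counting error only and treat reads as independent. PCR copies are not independent molecules, so that the intervals may be too narrow even for counting error. A floor of 3 counts equals 0.266 CPM (with TMM-scaled library sizes) in the control and 0.286 in the depolarized library.

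The genes, lists and marker sets were chosen with earlier results of these data known. Named are all 34 genes, list genes with an absolute log2(fold-change) above 1 and at least 10 reads, and abundant regulators or partners; further list genes (Mpc1, Mpc2, Gfpt1, Ogt, Epas1, Hif3a, Hif1an, Vegfa, Car9 and those in the additional observations) and markers were named after their values were seen. Symbols came from GENCODE vM1 (mm9), which holds 32601 of the listed identifiers; gene positions are on mm9 and promoter windows on GRCm38.p6 from RefSeq. Tried besides were scaling by total counts, by upper quartiles and by DESeq2 1.42.0 median-of-ratios size factors, a minimum of 10 reads, fold change alone, the end of the counting interval, a q-value of 0.05, an exact test of edgeR that takes the coefficient of variation as 0.1, 0.2 or 0.4, FPKM with pseudocounts of 0.1 and 1, and other sets of members.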

Additional observations from a re-analysis of the deposited data

How the results depend on the processing

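No paired analysis was possible because only 1 library was made per condition. The alternatives vary scaling, thresholds and an assumed spread, and say nothing of the spread between mice. The count of 5 up-regulated genes was 4 with total counts and 4 when the whole counting interval had to lie beyond 1, both without Slc16a1, and 6 by fold change alone, with Aldoc added on 11 reads. With edgeR's exact test and an assumed coefficient of variation of 0.1 it was 5, with 0.2 it was 2, Hk2 and Slc2a1, and with 0.4 it was 0, in a setting that called 0 genes of the whole table; the added spread is the construction of these settings.

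The log2(fold-change) of Hk2 was 3.01 and 2.88 with FPKM and pseudocounts of 0.1 and 1, below its counting interval, because FPKM follow total counts and the pseudocount draws it toward 0; with the other scalings it was between 3.02 and 3.22. The median over the 33 genes was 0.25 with total counts and 0.25 with FPKM at either pseudocount, 0.42 without Hk2, Slc2a1 and Slc16a3, and 0.41 without 8 abundant enzymes that have near-identical copies in the genome. With total counts or FPKM, 5 uncalled genes changed sign: Slc2a4, Pfkm, Eno3, Ldhb and Pdk3. With the length adjustment, chosen after the data were seen, 3 did: Eno3, Ldhb and Pdk3. Over the other 32 genes, 114 values stayed within their counting interval and 78 moved out of it. Depth limits Hk3, Aldoc, Pfkfb1 and Pfkfb4, whose intervals include 0.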

Other observations

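Among glycogen genes, the targeting subunits Ppp1r3b and Ppp1r3c, which bring protein phosphatase to glycogen, had the highest values, at 0.82 (0.45 to 1.19) and 0.79 (0.43 to 1.16) on the log2(fold-change) scale, from 98 and 161 and from 104 and 168 reads. Neither was called. With total counts they were at 0.61 and 0.58. The gene listed under the symbol Pgm1 (ENSMUSG00000029171), whose RefSeq name is now Pgm2, had 185 and 344 reads, with log2(fold-change) at 1.00 (0.73 to 1.26), close to the threshold and beside the 0.68 of its relative in the pathway. Tpi1 shares exonic sequence with Spsb2 on the other strand, which had 447 and 836 reads, with log2(fold-change) at 1.00 (0.84 to 1.17). Exons of Pfkp, Pfkfb1 and Pgm2, among others, also overlap genes on the other strand. These were Pitrm1 with 430 and 376 reads, Apex2 with 81 and 86, and Itgb3bp with 44 and 56. Markers of pancreas had 124 reads in the control and 379 in the depolarized library over 6 genes, with Prss1 and Amy2a5 at 0 in both. Up-regulation was called for 3 of these 6, beside 2.11% of all genes with reads. The part of pancreas in the results on the pathway was not tested. The near-identical copy of Eno1 listed as Gm5506 had 4 and 6 reads.

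Of the other marker sets, fibroblast markers had 5 of 5 intervals below 0, with a median of -0.29, and smooth muscle markers had 4 of 6 above and 2 of 6 below 0, with a median of 0.12. Among the 4096 genes with at least 1000 reads, 2077 had an interval above 0 and 827 one below 0. Markers of skeletal and cardiac muscle had a median of 0.31 on 491 and 483 reads, with Myh4 at 0 in both, and those of nerve and Schwann cells a median of -0.27 with Th at 0. Lymphocyte markers had 6 and 8 reads in all, with Cd3g at 0. Regulators of glucose sensing had a median of 0.13 over 12 genes, with 1 up-regulated, beside 2.11% of all genes with reads.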
